A study of Mus musculus with 9 samples.

Results

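The extracellular matrix of a fibroblast is more than collagen. The 55 genes described here encode the non-collagen part of it: glycoproteins of elastic fibres and basement membranes, matricellular proteins, proteoglycans, adhesive glycoproteins, the latent TGF-beta binding proteins and the lysyl oxidases. They were listed by gene name and role, with no threshold on a measured value, by which time earlier results of these data were known. All 55 are among the 22068 genes of the deposited count table, and 53 passed the filter on low values that left 10100 genes for testing. By role they comprised 12 elastic fibre genes, 4 latent TGF-beta binding proteins, 5 lysyl oxidases, 9 basement membrane genes, 12 matricellular genes, 8 proteoglycans and 5 adhesive glycoproteins.

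The cells were primary mouse embryonic fibroblasts (MEFs) of strain C57Bl/6 at passage 2, connective tissue cells grown out of mouse embryos. Every culture was electroporated with a plasmid, kept under puromycin for 5 days and left to recover, so that resistance to the drug was shared by all groups. The labels place 48 h of recovery after puromycin, whereas the methods place the 48 h between electroporation and puromycin and give an overnight culture after it. The eutherian CRX group received V5-tagged human *CRX*, the metatherian CRX group received V5-tagged opossum *CRX*, and the control group received the puromycin resistance gene without a homeobox gene, although its label also carries the V5 tag. CRX is a paired-class homeodomain transcription factor of photoreceptors that fibroblasts do not normally use, so the cells model ectopic expression and not a tissue in which *CRX* acts. Each group held 3 libraries of poly-A RNA, harvested in triplicate, and neither the labels nor the methods say whether the replicates came from separate cultures, so that p-values measure the spread between these libraries, which may be technical.

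As background, fibroblasts secrete most of these proteins as soluble precursors that assemble outside the cell. Fibrillins form microfibrils onto which elastin is laid down with the help of fibulins, and lysyl oxidases oxidise lysines of elastin and collagen so that the chains become cross-linked. Small leucine-rich proteoglycans such as decorin and lumican sit on collagen fibrils and regulate their width and spacing. Latent TGF-beta binding proteins hold the growth factor TGF-beta in the matrix in an inactive form, and matricellular proteins such as thrombospondins and periostin signal to cells more than they bear load. Laminins, nidogens and perlecan build the sheet-like basement membrane.

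Between 54145701 and 94699657 reads per library were counted on genes. Values per library are given as CPM, which are counts scaled to the size of the library and to TMM factors of 0.961 to 1.10, always in the order of replicate 1, 2 and 3. Levels of different genes are compared only as FPKM, that is per kilobase of exon. Reads counted on mouse *Crx* numbered 0 in all 3 control libraries, 627, 995 and 313 with eutherian CRX, and 4, 0 and 0 with metatherian CRX, so that expression of opossum *CRX* could not be read from this row. All 10 fibroblast markers were above 1 CPM in every library, and their summed level was 25560 to 33615 CPM in control, 8364 to 24140 CPM with eutherian CRX and 9377 to 19668 CPM with metatherian CRX. Smooth muscle markers, of which 4 of 5 were tested, summed to 1519 to 2969 CPM in control, 206 to 1033 CPM with eutherian CRX and 367 to 680.5 CPM with metatherian CRX. Summed macrophage markers reached 14.3 to 43.9 CPM in control, 9.49 to 26.4 CPM with eutherian CRX and 7.44 to 14.3 CPM with metatherian CRX. The epithelial markers summed to 0.863 to 3.60 CPM in control, 0.486 to 12.6 CPM with eutherian CRX and 1.85 to 9.05 CPM with metatherian CRX, and the skeletal muscle markers to at most 0.238 CPM in any library. Cartilage and bone markers summed to 115 to 129 CPM in control, 75.7 to 125 CPM with eutherian CRX and 80.4 to 284 CPM with metatherian CRX. Over all libraries the endothelial markers summed to 11.2 to 18.4 CPM, the fat markers to 23.8 to 78.6 CPM and the markers of glia and neurons to 11.4 to 41.9 CPM. Eutherian CRX replicate 3 held the lowest sum of the fibroblast and smooth muscle markers and the highest sum of the epithelial markers among all 9 libraries. In bulk RNA, fewer cells of a type and less RNA per cell cannot be told apart, and the part of these markers in the results that follow was not tested.

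Eutherian CRX replicate 3 stood apart from the other libraries of its group. Over all tested genes the SD of its log2 difference was 0.850 from eutherian CRX replicate 1 and 0.885 from replicate 2, whereas replicates 1 and 2 differed by an SD of 0.148. The corresponding values were 0.551 and 0.444 for control replicate 3 and 0.553 and 0.573 for metatherian CRX replicate 3. The labels do not say what a replicate number marks. Which members were called, and which changed direction, is therefore also given without the libraries numbered 3. That number was picked because its libraries stood apart in these same values, and these fits rest on 2 libraries per group. Their standard errors and adjusted p-values can thus be too small, and their calls are descriptions. Leaving out the libraries numbered 1, or those numbered 2, called no member in any comparison of conditions. The order of the groups within a number is described without the share of all genes beside it.

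Matrix genes were abundant in these cells. The members took 9.57%, 9.33% and 7.96% of all counts in control, 8.41%, 8.17% and 4.28% with eutherian CRX and 8.77%, 8.16% and 5.41% with metatherian CRX. Without *Fn1*, *Thbs1*, *Sparc* and *Lox* the shares were 3.01%, 3.11% and 3.35% in control. They were then 2.55%, 2.57% and 2.15% with eutherian CRX and 2.44%, 2.49% and 2.23% with metatherian CRX. The median of the mean FPKM over all libraries was 63.8 among the 53 tested members and 11.3 among all genes tested. A mean above 100 FPKM was reached by 21 members, which is 39.6% of those tested, against 4.87% of all tested genes. The highest were *Thbs1* at 3518 FPKM, *Sparc* at 2447, *Fn1* at 2100.3, *Bgn* at 2015 and *Lox* at 1339. At the other end, *Spon1* (spondin 1) lay between 1.36 and 2.36 CPM in all libraries and *Vtn* (vitronectin, a plasma protein) had 0 to 2 counts per library, and neither passed the filter on low values.

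**Figure D1:**
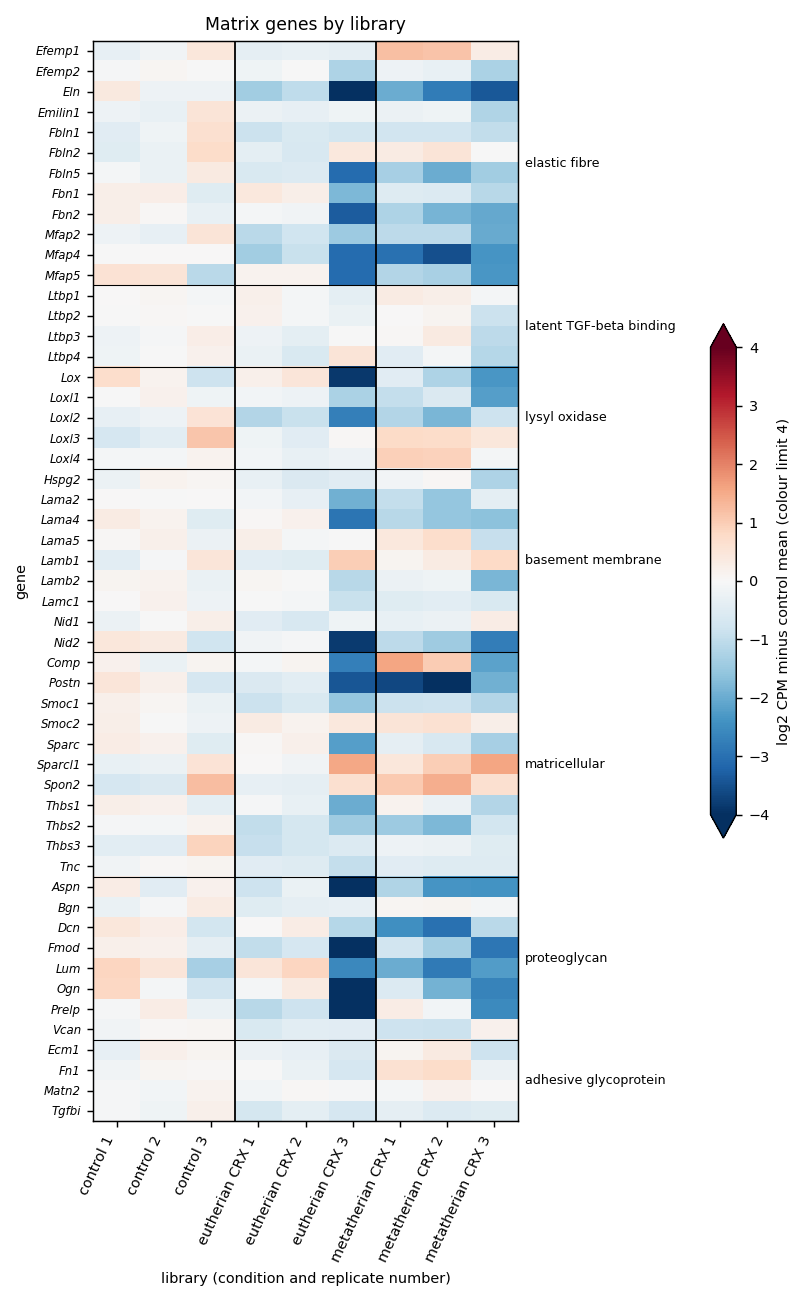
Heat map of the 53 tested matrix genes in the 9 libraries, as log2 CPM (prior count 2) minus the mean of the 3 control libraries, with genes grouped by role and colours limited at 4. Deep blue cells gather in eutherian CRX replicate 3 and in the proteoglycan and elastic fibre genes of the metatherian CRX libraries, and red cells include *Comp*, *Efemp1* and *Spon2* in metatherian CRX replicates 1 and 2 and *Sparcl1* in replicate 3 of both CRX groups.

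The first question was whether human *CRX* altered the matrix genes of fibroblasts. *Smoc1* fell with eutherian CRX and was the only member called, that is with an adjusted p under 0.05 in edgeR's quasi-likelihood test over all 10100 genes. Among all genes tested, 0.584% were called lower and 0.0198% higher in this comparison. Below 0 in log2 fold change were 49 of the 53 members, against 49.7% of all genes, and the median was -0.49 for the members and 0.0013 for all genes. An unadjusted p under 0.05 was reached by 15 members on the lower side and 0 on the higher side, where the shares of all genes were 6.34% and 2.23%. In 18 members every eutherian CRX library lay below every control library, which was true of 7.8% of all genes, and in 0 members did they all lie above, which was true of 6.21%. DESeq2 called 0 members higher and 9 lower (0.376% and 2.92% of all genes), and limma voom with library quality weights called 1 higher and 20 lower (6.65% and 10.1%). Without the replicate number as a block, or with only the 6 libraries of this comparison in the fit, edgeR called 0 members and 0% of all genes, and the call of *Smoc1* was lost.

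Opossum *CRX* gave no called member against control, where 0.0297% of all genes were called lower and 0% higher by edgeR. The log2 fold change was below 0 in 39 of 53 members, against 51.2% of all genes, with a median of -0.51 against -0.0080 over all genes. At an unadjusted p under 0.05 stood 22 lower and 4 higher members, against 10.5% and 9.04% of all genes. All 3 metatherian CRX libraries lay below all 3 control libraries in 24 members and above them in 1, *Smoc2*, whereas 12.3% and 11% of all genes did so. DESeq2 called 2 members higher and 13 lower (4.67% and 5.27% of all genes), and limma voom 13 higher and 29 lower (22.6% and 23.5%). With only the 6 libraries of this comparison edgeR called 1 higher and 15 lower (1.75% and 2.19% of all genes), and without the block 0 (0% of all genes). Both comparisons use the same 3 control libraries, so their values are set side by side and no relation between them is drawn.

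The direct comparison of the CRX orthologues called 0 members, and 0% of all genes, in either direction. At an unadjusted p under 0.05 were 6 members higher and 3 lower with metatherian CRX, against 7.41% and 4.13% of all genes, while DESeq2 called 2 higher and 0 lower (2.26% and 0.881% of all genes) and limma voom 17 higher and 19 lower (24% and 24.3%). The median difference of the members was 0.01, with 26 of 53 below 0, against 51.2% of all genes. In 6 members, namely *Efemp1*, *Loxl3*, *Loxl4*, *Spon2*, *Thbs3* and *Bgn*, every metatherian CRX library was above every eutherian CRX library, against 6.23% of all genes, and in 0 was it below (5.3% of all genes).

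**Figure D2:**
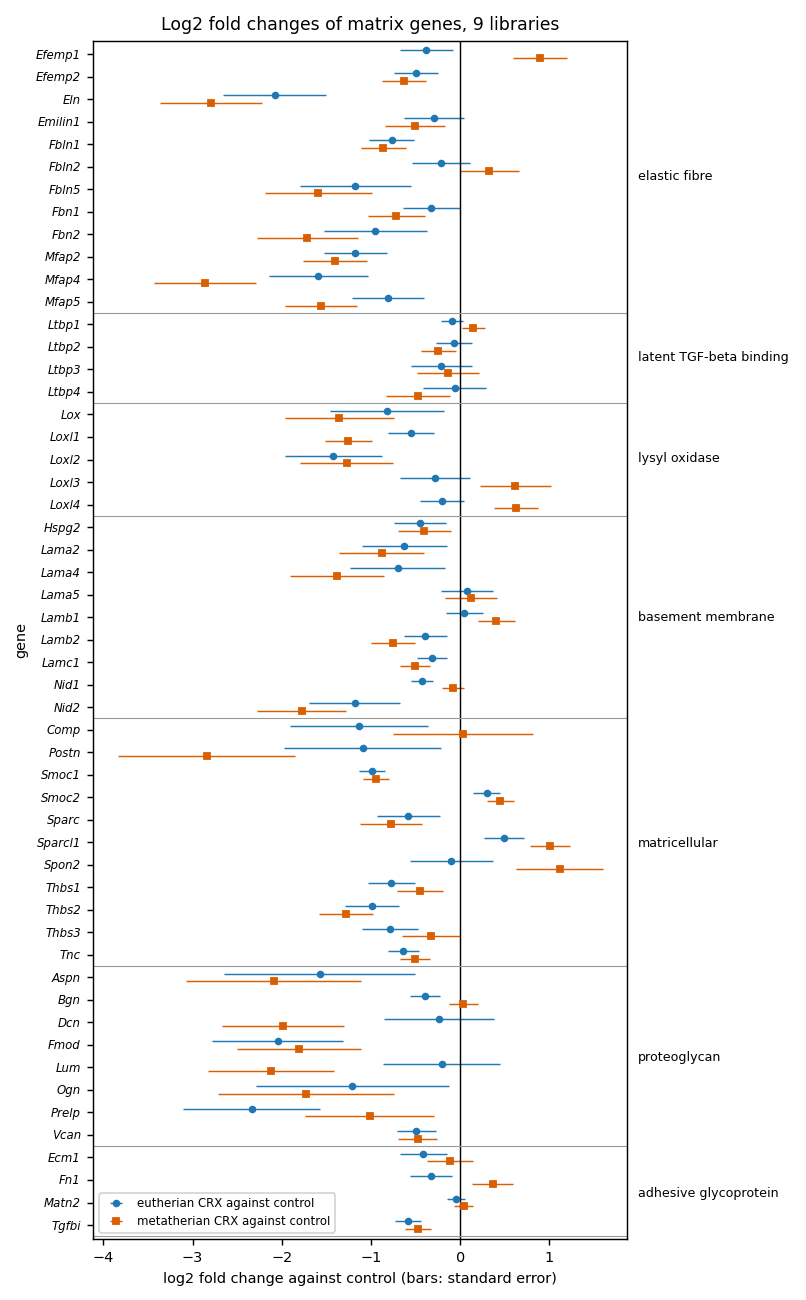
Log2 fold change against control of each tested matrix gene with eutherian CRX (circles) and metatherian CRX (squares), with bars for the standard error, from the edgeR fit on all 9 libraries. Most points lie left of 0, those of *Efemp1*, *Loxl3*, *Loxl4*, *Spon2* and *Sparcl1* with metatherian CRX lie right of it, and bars are widest for *Postn*, *Ogn* and *Aspn*.

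The counts of calls turned on the libraries numbered 3. Without these 3 libraries, edgeR called 0 members higher and 9 lower with eutherian CRX (0.515% and 2.91% of all genes), and 10 higher and 27 lower with metatherian CRX (11.1% and 11.2% of all genes). The direct comparison then had 14 members higher and 20 lower with metatherian CRX (12.8% and 9.78% of all genes). Leaving out eutherian CRX replicate 3 alone gave 0 calls with eutherian CRX (0% of all genes), 2 higher and 22 lower with metatherian CRX (3.91% and 4.91%), and 0 higher and 7 lower in the direct comparison (2.05% and 1.32%). Leaving out metatherian CRX replicate 3 alone gave 0 higher and 1 lower (0.0495% and 1.08% of all genes), 3 higher and 8 lower (2.63% and 2.16%), and 3 higher and 2 lower (1.12% and 0.337%), in the same order. Leaving out all libraries numbered 1, or all numbered 2, gave 0 called members and 0% of all genes in each comparison. Of the 53 members, 22 had their lowest value of all 9 libraries in eutherian CRX replicate 3, which is 41.5% against 22.6% of all genes. The median of the members relative to the control mean was -0.21, -0.32 and -1.12 with eutherian CRX and -0.37, -0.43 and -1.07 with metatherian CRX, with -0.04, 0.02 and 0.04 in control. Both libraries numbered 3 of the CRX groups were thus lower than the others of their group, and every CRX library was below every control library.

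Without the libraries numbered 3, the 9 members called lower with eutherian CRX were *Eln*, *Mfap2*, *Mfap4*, *Thbs2*, *Postn*, *Smoc1*, *Fmod*, *Prelp* and *Vcan*, at log2 fold changes from -1.28 (*Eln*) to -0.47 (*Vcan*). With metatherian CRX the 10 called higher were *Efemp1*, *Fbln2*, *Loxl3*, *Loxl4*, *Lamb1*, *Comp*, *Sparcl1*, *Spon2*, *Smoc2* and *Fn1*, from 0.44 (*Lamb1*) to 1.88 (*Spon2*). The 27 called lower with metatherian CRX comprised 8 elastic fibre genes, *Lox*, *Loxl1* and *Loxl2*, 5 basement membrane genes, 5 matricellular genes and 6 proteoglycans, from -4.19 (*Postn*) to -0.34 (*Lamb2*). The direction against control differed from that with all libraries in 10 members with eutherian CRX, namely *Fbn1*, *Ltbp1*, *Ltbp2*, *Loxl3*, *Lama5*, *Lamb1*, *Comp*, *Spon2*, *Lum* and *Matn2*, and in 5 with metatherian CRX, namely *Emilin1*, *Ltbp2*, *Ltbp3*, *Thbs3* and *Ecm1*. edgeR called none of these 15 values with or without the libraries numbered 3. Between the orthologues the direction differed in 8 members, of which *Vcan* was called lower with metatherian CRX without those libraries (-0.33 (SE 0.092, adjusted p 0.0451 from edgeR)). None of the 9 calls with eutherian CRX held when eutherian CRX replicate 3 alone was left out.

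A single library set the size of many values with eutherian CRX. When eutherian CRX replicate 3 alone was left out, the log2 fold change with eutherian CRX became smaller in size by over 1.5 times in 26 of the 53 members, larger by over 1.5 times in 6, and of the other sign in 5, which were *Fbn1*, *Lama5*, *Lamb1*, *Dcn* and *Lum*. Leaving out metatherian CRX replicate 3 alone made the log2 fold change with metatherian CRX smaller by over 1.5 times in 5 members, larger by over 1.5 times in 15, and of the other sign in 4, which were *Ltbp2*, *Ltbp3*, *Thbs3* and *Ecm1*. Values from these fits stand beside several of these members.

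**Figure D3:**
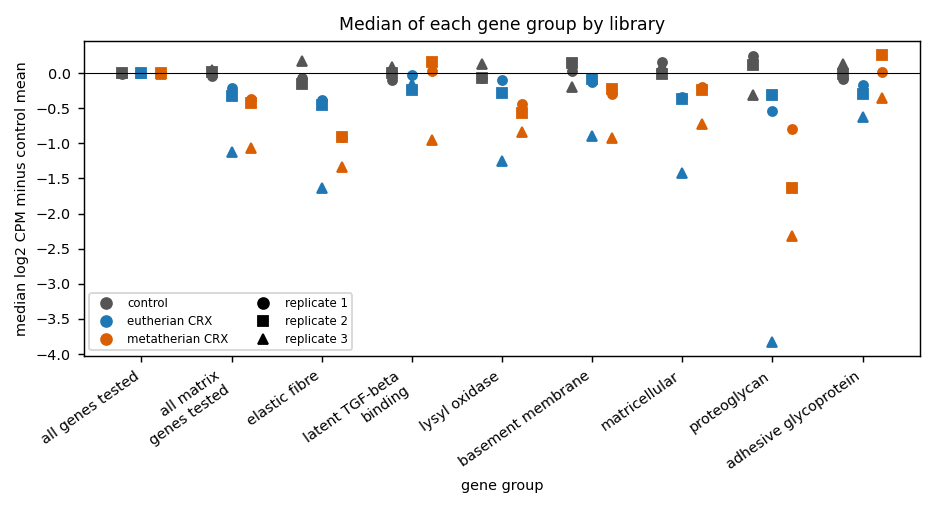
Median over the genes of each group of log2 CPM minus the control mean, with 1 point per library (colour for the condition, symbol for the replicate number). The medians of all genes tested lie near 0 in all libraries, and those of the proteoglycans reach -3.83 in eutherian CRX replicate 3 and -0.79, -1.64 and -2.32 for metatherian CRX.

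Most elastic fibre genes lay below control. With eutherian CRX all 12 were below 0 and 4 had an unadjusted p under 0.05, with metatherian CRX 10 were below 0 and 8 lower and 1 higher had such a p, and edgeR called 0 in either comparison. The median log2 fold change was -0.79 with eutherian and -1.13 with metatherian CRX. Without eutherian CRX replicate 3 the eutherian median was -0.39 and *Fbn1* lay above 0, at 0.11. *Eln* (chr5:134702596-134747367, mm10), which encodes elastin itself, stood at 162, 107 and 105 CPM in control, 46.5, 60.0 and 6.41 CPM with eutherian CRX and 30.6, 17.7 and 11.6 CPM with metatherian CRX. Every CRX library was below the lowest control library, and the level in eutherian CRX replicate 3 was far below that of the other libraries of its group. The log2 fold change was -2.08 (SE 0.58) with eutherian CRX, at an adjusted p of 0.317 from edgeR, and -2.79 (SE 0.57) with metatherian CRX, at 0.0887. Without the libraries numbered 3 *Eln* was called in both, at -1.28 (SE 0.25, adjusted p 0.0472 from edgeR) and -2.49 (SE 0.26, adjusted p 0.00132 from edgeR).

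*Mfap4* and *Mfap2*, both microfibril-associated, had every CRX library below every control library and were not called. *Mfap4* (chr11:61485378-61488706), whose product binds elastin and collagen, was measured at 59.4, 61.0 and 60.4 CPM in control, 22.8, 32.5 and 7.04 CPM with eutherian CRX and 7.56, 5.19 and 11.6 CPM with metatherian CRX. Control libraries were nearly level, and both CRX groups lay wholly below them. Its log2 fold change was -1.59 (SE 0.55) with eutherian and -2.86 (SE 0.57) with metatherian CRX, with adjusted p-values of 0.474 and 0.0873 from edgeR, and the direct difference of -1.27 (SE 0.57) was not called (0.458). Without the libraries numbered 3 all 3 values were called, at -1.13 (SE 0.21, adjusted p 0.0416 from edgeR), -3.23 (SE 0.23, adjusted p 0.000384 from edgeR) and -2.11 (SE 0.23, adjusted p 0.00171 from edgeR). The direct difference ranged from -1.95 to -0.68 with 1 library left out and from -2.11 to -0.51 with 1 replicate number left out. Without eutherian CRX replicate 3 alone the value with eutherian CRX was -0.99, not called. *Mfap2*, a small glycoprotein of fibrillin microfibrils, had 36.6, 33.7 and 59.5 CPM in control, 19.9, 24.0 and 15.1 CPM with eutherian CRX and 20.3, 20.1 and 10.4 CPM with metatherian CRX. Here too the CRX groups lay below control without overlap, with log2 fold changes of -1.18 (SE 0.35) and -1.40 (SE 0.36), and without the libraries numbered 3 both were called, at -0.68 and -0.80. The fibrillins themselves, chosen for mention after their values were seen, had log2 fold changes of -0.32 with eutherian and -0.72 with metatherian CRX for *Fbn1*, and of -0.95 with eutherian and -1.71 with metatherian CRX for *Fbn2*. *Fbn1* gave between 83.0% and 94.1% of the summed FPKM of both in every library. Without the libraries numbered 3 both fibrillins were called lower with metatherian CRX, at -0.78 and -1.67, and had 0.076 and -0.24 with eutherian CRX. Leaving out eutherian CRX replicate 3 alone gave *Fbn2* a value of -0.25 with eutherian CRX.

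Not every elastic fibre gene was low with metatherian CRX. *Efemp1* (fibulin 3, chr11:28853205-28926743) stood at 279, 319 and 479 CPM in control, 269.8, 286 and 275 CPM with eutherian CRX and 802, 779 and 429 CPM with metatherian CRX. Metatherian CRX replicates 1 and 2 were well above every other library, and metatherian CRX replicate 3 lay between control replicates 2 and 3. The direct difference between the orthologues was 1.27 (SE 0.30) on the log2 scale, the lowest p of any member in that comparison (unadjusted 0.00417, adjusted 0.281, edgeR), and every metatherian CRX library was above every eutherian CRX library. Against control it was 0.90 (SE 0.30) with all libraries and 1.40 (SE 0.092, adjusted p 0.000325 from edgeR) without those numbered 3, where it was called. *Fbln2*, a fibulin of vessel walls and basement membranes and the member of this group with the highest mean FPKM (594), had 1840.3, 2148 and 4323 CPM in control, 1946, 1668 and 3435 CPM with eutherian CRX and 3219, 3678 and 2565 CPM with metatherian CRX. Its groups overlapped in each comparison, control replicate 3 was the highest library of all, and the log2 fold change of 0.33 (SE 0.33) with metatherian CRX became 0.79 (SE 0.13, adjusted p 0.00745 from edgeR), a call, without the libraries numbered 3. This log2 fold change ranged from 0.032 to 0.76 with 1 library left out and from 0.067 to 0.79 with 1 replicate number left out. *Fbln5*, which tethers elastin to cells, lay below control in both groups with no overlap, at log2 fold changes of -1.18 with eutherian and -1.59 with metatherian CRX. The same held for *Fbln1*, at -0.77 with eutherian and -0.86 with metatherian CRX on the log2 scale, and neither was called. In the 6 libraries numbered 1 and 2, both were called lower with metatherian CRX, at -1.47 and -0.45. With eutherian CRX *Fbln5* had -0.40 without those libraries and -0.44 without eutherian CRX replicate 3 alone. The 3 remaining genes of the group, *Efemp2*, *Mfap5* and *Emilin1*, had log2 fold changes between -0.81 and -0.29 with eutherian CRX and between -1.56 and -0.51 with metatherian CRX. When the libraries numbered 3 were left out, the values with metatherian CRX were -1.79 (SE 0.086, adjusted p 0.000213 from edgeR) for *Mfap5*, a call, -0.27 for *Efemp2* and 0.053 for *Emilin1*. Those with eutherian CRX lay between -0.41 (*Mfap5*) and -0.035 (*Emilin1*).

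**Figure D4:**
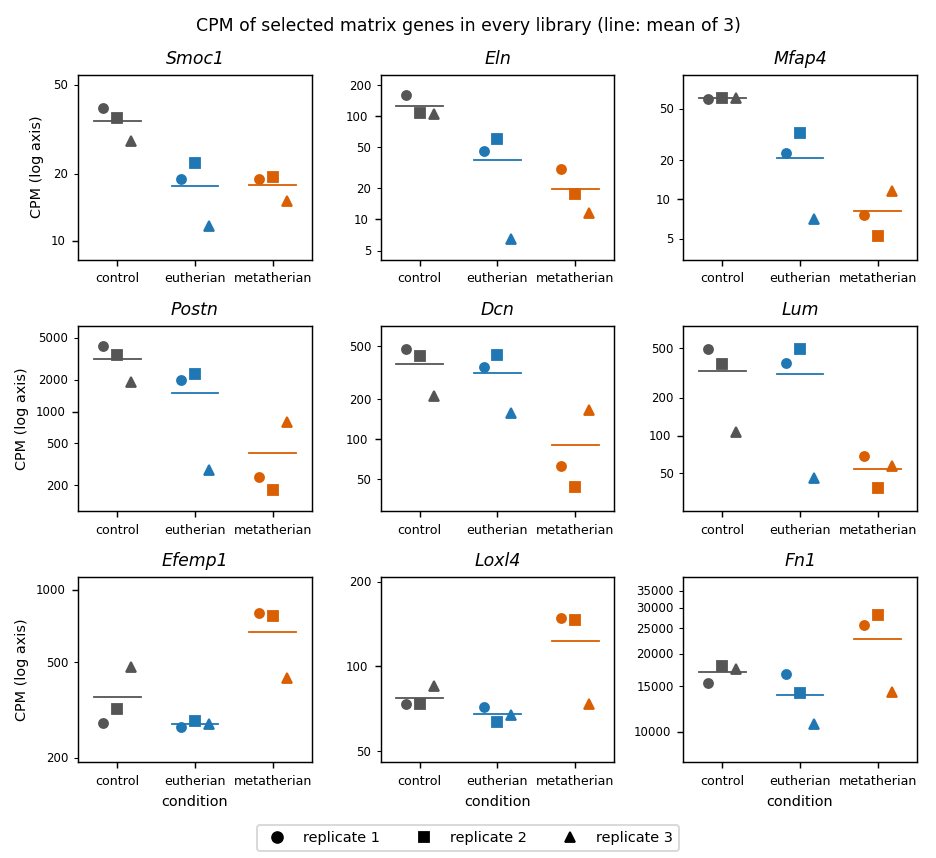
CPM on a log axis of 9 matrix genes in each library, with 1 symbol per replicate number and a line for the mean of 3 libraries. *Smoc1*, *Eln*, *Mfap4* and *Postn* lie lower in the metatherian CRX libraries than in any control library, *Dcn* and *Lum* are low in the metatherian CRX libraries and in the libraries numbered 3, and *Efemp1*, *Loxl4* and *Fn1* are high in metatherian CRX replicates 1 and 2 and not in replicate 3.

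Of the latent TGF-beta binding proteins, none of the 4 reached an unadjusted p under 0.05 against control, in either group, and their medians were -0.08 with eutherian and -0.19 with metatherian CRX. *Ltbp2*, a microfibril protein that does not bind latent TGF-beta despite its name and the most abundant of the 4 per length (119.6 FPKM), had 939, 974 and 941 CPM in control, 1065, 907 and 785 CPM with eutherian CRX and 966, 1016 and 519.7 CPM with metatherian CRX. All libraries but metatherian CRX replicate 3 lay between 785 and 1065 CPM. The log2 fold change was -0.070 (SE 0.20) with eutherian and -0.24 (SE 0.20) with metatherian CRX, and the latter became 0.050 (SE 0.11, adjusted p 0.778 from edgeR) without the libraries numbered 3. *Ltbp1*, *Ltbp3* and *Ltbp4* had log2 fold changes between -0.21 and -0.063 with eutherian CRX and between -0.47 and 0.15 with metatherian CRX. The SE reached 0.36 on the log2 scale, for *Ltbp4* with metatherian CRX. In metatherian CRX replicate 3 all 4 genes were below the control mean, with a median of -0.95 on the log2 scale, against 0.030 and 0.16 in replicates 1 and 2. Without that library the median log2 fold change of the 4 with metatherian CRX was 0.084, and without eutherian CRX replicate 3 that with eutherian CRX was -0.28.

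*Ltbp1*, *Ltbp2* and the laminin gene *Lamb2* carried the core recognition sequence of CRX in front of their start. CRX and related OTX homeodomains bind TAATCC, and 250 bases before the start of the 3 member genes with a match are printed here because they are the only members with it among the 33 that have a promoter in the RefSeq table (build GRCm38.p6). The strands are given with the coordinates, each sequence runs 5′ to 3′ toward the start of its gene, and capitals mark TAATCC. Both strands were searched.
Lamb2, chr9:108479612-108479861, plus strand: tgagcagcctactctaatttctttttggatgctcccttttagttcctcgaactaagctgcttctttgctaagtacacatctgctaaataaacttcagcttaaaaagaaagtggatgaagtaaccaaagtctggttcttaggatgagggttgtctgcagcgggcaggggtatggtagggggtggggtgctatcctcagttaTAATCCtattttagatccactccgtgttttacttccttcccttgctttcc
Ltbp1, chr17:75178531-75178780, plus strand: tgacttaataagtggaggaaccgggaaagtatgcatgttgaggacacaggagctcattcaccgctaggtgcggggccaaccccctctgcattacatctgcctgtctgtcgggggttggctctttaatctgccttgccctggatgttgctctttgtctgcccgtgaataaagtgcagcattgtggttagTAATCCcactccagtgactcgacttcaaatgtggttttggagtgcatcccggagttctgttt
Ltbp2, chr12:84876492-84876741, minus strand: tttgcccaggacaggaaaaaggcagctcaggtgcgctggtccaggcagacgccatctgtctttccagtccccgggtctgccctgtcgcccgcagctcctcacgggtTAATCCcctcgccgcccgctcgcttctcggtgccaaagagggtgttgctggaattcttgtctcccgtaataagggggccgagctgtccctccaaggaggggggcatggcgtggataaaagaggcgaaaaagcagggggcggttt
The match lies 50 to 45 bases before the start in *Lamb2*, 62 to 57 in *Ltbp1* and 144 to 139 in *Ltbp2*. Among all 32851 promoters of the table, 7.06% held the sequence on either strand in the 300 bases from 250 before to 50 after the start, and 6.25% in the 250 bases before it. Of the 43 promoter entries of the members 3 held it, which is 6.98%, in either window. The shorter core ATTA, or TAAT on the other strand, which overlaps TAATCC, was present in 23 of the 33 members, which is 26 of their 43 promoter entries or 60.5%, and in 58% of all promoter entries. With 60% of the members in the table, these shares describe those entries only, and no difference from all promoters is read from them. A match is a description of the letters and not of a site bound by CRX. The 3 genes had log2 fold changes of -0.39, -0.093 and -0.070 with eutherian CRX, and -0.75, 0.15 and -0.24 with metatherian CRX, none of them called.

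Lysyl oxidases differed by member. At an unadjusted p under 0.05, 1 of 5 was lower with eutherian CRX, 2 were lower and 1 higher with metatherian CRX, and edgeR called 0. *Lox*, the founding enzyme of the family and its most abundant member per length (1339 FPKM), stood at 13515, 9159 and 4665 CPM in control, 9579, 11668 and 568 CPM with eutherian CRX and 6123, 3548 and 1652 CPM with metatherian CRX. Control libraries already spanned a wide range, and eutherian CRX replicate 3 was the lowest library by far. The log2 fold changes of -0.82 (SE 0.64) and -1.35 (SE 0.61) were not called (adjusted p 0.803 and 0.281, edgeR), and without the libraries numbered 3 they were -0.044 (SE 0.24, adjusted p 0.956 from edgeR) and -1.25 (SE 0.25, adjusted p 0.0131 from edgeR), the latter called. With 1 library left out they ranged from -1.63 to -0.079 with eutherian and from -1.77 to -0.75 with metatherian CRX. *Loxl1*, which is bound to elastic fibres and needed for their renewal, had 638, 719.9 and 567 CPM in control, 597, 552 and 267 CPM with eutherian CRX and 331, 431 and 138 CPM with metatherian CRX. Every metatherian CRX library was below every control library, at -1.25 (SE 0.26) and an adjusted p of 0.0936 (edgeR), against -0.55 (SE 0.26) and 0.634 with eutherian CRX. With the libraries numbered 3 left out, the value with metatherian CRX was -0.84 (SE 0.12, adjusted p 0.00474 from edgeR) and was called, and that with eutherian CRX was -0.24.

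*Loxl4* was measured at 73.8, 73.7 and 84.9 CPM in control, 72.0, 63.6 and 67.2 CPM with eutherian CRX and 149, 146 and 73.3 CPM with metatherian CRX. Replicates 1 and 2 of metatherian CRX lay above all other libraries, and replicate 3 lay between the eutherian CRX and the control libraries. Every metatherian CRX library was above every eutherian CRX library, and the direct difference was 0.83 (SE 0.25) with an unadjusted p of 0.0124 and an adjusted p of 0.32 (edgeR). *Loxl3*, which was not among the genes listed by rule, was likewise higher in every metatherian than in every eutherian CRX library, at a log2 difference of 0.90 (SE 0.38), and 11% of its exon bases overlap those of *Htra2*. In the 6 libraries numbered 1 and 2, both were called higher with metatherian CRX than in control, *Loxl4* at 1.00 (SE 0.079, adjusted p 0.000493 from edgeR) and *Loxl3* at 1.30 (SE 0.13, adjusted p 0.00102 from edgeR), while *Lox*, *Loxl1* and *Loxl2* were called lower. *Loxl2*, an enzyme of collagen IV cross-linking, had log2 fold changes of -1.42 with eutherian and -1.27 with metatherian CRX, and the former was -0.77 without eutherian CRX replicate 3 and -0.75 without all libraries numbered 3.

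The makeup of the family, as the share of its summed FPKM, is shown beside that of the laminin beta chains. *Lox* made up 91.1%, 86.0% and 72.4% of lysyl oxidase FPKM in control, 88.3%, 90.9% and 42.4% with eutherian CRX and 83.8%, 73.5% and 68.7% with metatherian CRX. *Loxl3* made up 1.19%, 1.97% and 9.49% in control, 2.30%, 1.62% and 21.6% with eutherian CRX and 6.66%, 9.69% and 16.0% with metatherian CRX. The highest share was that of eutherian CRX replicate 3, and the ranges of all groups overlap.

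**Figure D5:**
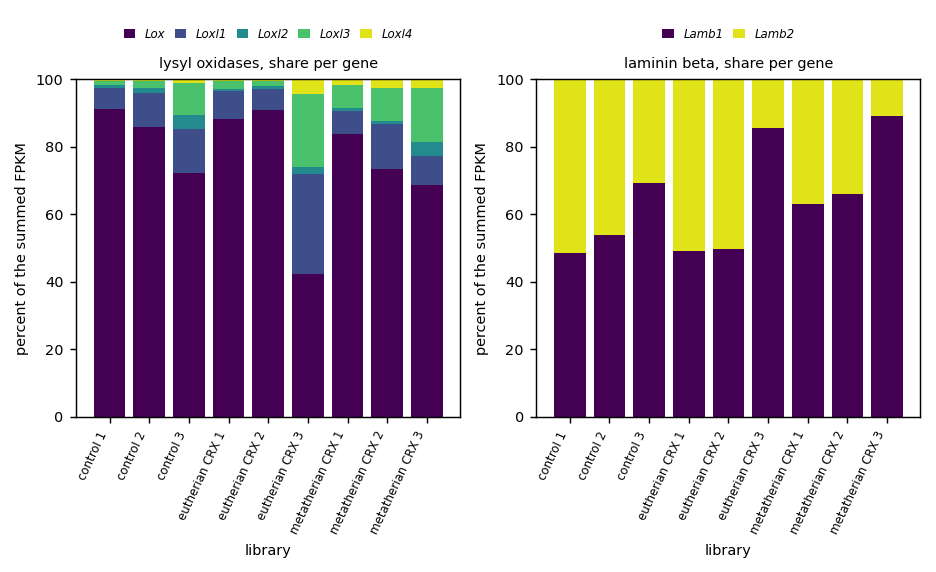
Share of each gene in the summed FPKM of the 5 lysyl oxidases (left) and of the laminin beta chains *Lamb1* and *Lamb2* (right) in each library, as stacked bars from 0 to 100%. *Lox* gives the largest share in every library and its lowest, 42.4%, in eutherian CRX replicate 3, and *Lamb1* gives its highest shares, 85.5% and 89.3%, in the CRX libraries numbered 3.

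Most basement membrane genes lay below control, with the exceptions of *Lamb1* and *Lama5*. Of the 9 genes 7 were below 0 in each comparison with control, 1 lower gene had an unadjusted p under 0.05 with eutherian and 4 with metatherian CRX, and edgeR called 0. *Lamb1* (laminin beta 1), the most abundant of them per length (125 FPKM), had 461, 588 and 852 CPM in control, 458, 439 and 1221 CPM with eutherian CRX and 656, 768 and 1061 CPM with metatherian CRX. The libraries numbered 3 were the highest of each group. Its log2 fold change was 0.048 (SE 0.21) with eutherian and 0.41 (SE 0.21) with metatherian CRX. Without eutherian CRX replicate 3 the value with eutherian CRX was -0.23. Metatherian CRX exceeded control within each number, although the numbers are not shown to mark pairs. *Lamb2* had log2 fold changes of -0.39 with eutherian and -0.75 with metatherian CRX. *Lamb1* made up 48.7%, 54.0% and 69.4% of laminin beta FPKM in control, 49.0%, 49.8% and 85.5% with eutherian CRX, and 63.1%, 65.9% and 89.3% with metatherian CRX. Within each number the metatherian CRX share was above that of control, while the ranges of the groups overlap.

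*Nid1* (nidogen 1), which links laminin to collagen IV, stood at 706, 824 and 983 CPM in control, 601, 529 and 736 CPM with eutherian CRX and 676, 707 and 1013 CPM with metatherian CRX. Eutherian CRX was below control within each replicate number, at -0.43 (SE 0.12) and an adjusted p of 0.335 (edgeR), and the direct difference of 0.35 (SE 0.12) had 0.359. Its relative *Nid2* had log2 fold changes of -1.18 with eutherian and -1.77 with metatherian CRX, with 7.9% of its exon bases shared with another gene. Its value with eutherian CRX was -0.54 without eutherian CRX replicate 3 and -0.49 without all libraries numbered 3. Among the laminin alpha chains, the log2 fold changes with eutherian and metatherian CRX were -0.70 and -1.38 for *Lama4*, -0.63 and -0.88 for *Lama2*, and 0.072 and 0.12 for *Lama5*. Without eutherian CRX replicate 3 those with eutherian CRX were -0.063, -0.083 and -0.22 in the same order. *Lama2* and *Lama5* with metatherian CRX had -1.55 and 0.49 without metatherian CRX replicate 3. *Lama5* gave 15.8%, 18.9% and 20.4% of laminin alpha FPKM in control, 20.6%, 16.4% and 60.7% with eutherian CRX and 38.8%, 51.8% and 24.5% with metatherian CRX. When the libraries numbered 3 were left out, *Lama2*, *Lama4*, *Lamb2*, *Lamc1* and *Nid2* were called lower with metatherian CRX and *Lamb1* higher. *Lamc1*, the gamma chain common to most laminins, and *Hspg2* (perlecan) had log2 fold changes of -0.50 and -0.40 with metatherian CRX, and -0.31 and -0.45 with eutherian CRX. *Lamc1* had -0.11 with eutherian CRX without its replicate 3, and *Hspg2* and *Lamb2* had -0.027 and -0.47 with metatherian CRX without its replicate 3.

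The matricellular group held the called gene. At an unadjusted p under 0.05 it had 5 lower and 0 higher genes of 11 with eutherian CRX, and 4 lower and 2 higher with metatherian CRX. *Smoc1* (chr12:81026808-81186414), a calcium-binding SPARC-related protein found in basement membranes that modulates BMP signalling, stood at 39.2, 35.5 and 28.0 CPM in control, 18.9, 22.2 and 11.7 CPM with eutherian CRX and 18.8, 19.2 and 15.1 CPM with metatherian CRX. All 6 CRX libraries were below the lowest control library, and within each group replicate 3 was the lowest. Its level was 1.99-fold lower with eutherian CRX, which is -0.99 (SE 0.14) on the log2 scale with an adjusted p of 0.0457 in edgeR, and 1.93-fold lower with metatherian CRX, at -0.95 (SE 0.14) and 0.0721. The orthologues differed by 0.045 (SE 0.14) for this gene. The call with eutherian CRX is close to the threshold, and it was lost without the replicate number as a block (adjusted p 0.303, edgeR), with only the 6 libraries of the comparison (0.109) and with upper-quartile factors (0.0504). Leaving out 1 library kept its log2 fold change between -1.14 and -0.85, and of these 9 fits the call held only in that without metatherian CRX replicate 3 (adjusted p 0.0366) and was lost in the other 8, with adjusted p-values up to 0.344 (edgeR). Without the 3 libraries numbered 3 the gene was called with both, at -0.87 (SE 0.12, adjusted p 0.0146 from edgeR) and -0.98 (SE 0.12, adjusted p 0.00206 from edgeR), whereas without those numbered 1 or those numbered 2 the adjusted p with eutherian CRX was 0.803 and 0.253 (edgeR).

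Thrombospondin 2 and tenascin C lay below control in both groups. *Thbs2*, an inhibitor of vessel growth that also shapes collagen fibrils, had 1102, 1067 and 1247 CPM in control, 574, 694 and 425 CPM with eutherian CRX and 413, 329.7 and 689 CPM with metatherian CRX. Neither CRX group overlapped control, with log2 fold changes of -0.99 (SE 0.30) and -1.28 (SE 0.30) and adjusted p-values of 0.382 and 0.109 (edgeR), and both were called without the libraries numbered 3, at -0.77 and -1.55. *Tnc* (tenascin C), a glycoprotein of wounds and developing tissue, had 3796, 4336 and 4598 CPM in control, 3087, 2983 and 2177 CPM with eutherian CRX and 3085, 2975 and 2928 CPM with metatherian CRX. These groups did not overlap control either, with log2 fold changes of -0.64 (SE 0.17) and -0.51 (SE 0.17). With the libraries numbered 3 left out, *Tnc* had -0.42 and -0.43, the latter called. *Thbs1*, an activator of latent TGF-beta and the member with the highest FPKM, had 29243, 28197 and 19005 CPM in control, 24103, 20586 and 6289.7 CPM with eutherian CRX and 27559.7, 21271 and 11079 CPM with metatherian CRX. Replicates 1 and 2 of both CRX groups lay within the control range, and the log2 fold changes were -0.77 (SE 0.26) and -0.45 (SE 0.26), the former -0.45 without eutherian CRX replicate 3. *Thbs1* with metatherian CRX was -0.13 without control replicate 3 and -0.25 without all libraries numbered 3.

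Other matricellular genes had values above control. *Sparcl1* (hevin), an anti-adhesive relative of SPARC, was low in these cells (4.82 FPKM) and stood at 7.96, 8.40 and 14.3 CPM in control, 9.85, 8.96 and 28.7 CPM with eutherian CRX and 13.4, 19.5 and 29.2 CPM with metatherian CRX. Replicate 3 was the highest of each group, and both CRX groups exceeded control within each number. The log2 fold change was 0.49 (SE 0.22) with eutherian and 1.01 (SE 0.22) with metatherian CRX, with adjusted p-values of 0.616 and 0.102 from edgeR. In the 6 libraries numbered 1 and 2, these were 0.21, not called, and 1.00 (SE 0.17, adjusted p 0.00833 from edgeR), a call. *Smoc2* was above the control range in every metatherian CRX library, at 0.45 (SE 0.15) and an adjusted p of 0.186 (edgeR), the opposite direction to its relative *Smoc1*, and without the libraries numbered 3 it was called at 0.44.

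Periostin and COMP, chosen for mention after their values were seen, had libraries numbered 3 far from the others. *Postn* (periostin), a ligand of integrins that supports collagen assembly, had 4171, 3427 and 1905 CPM in control, 2004, 2264 and 281 CPM with eutherian CRX and 239.6, 178 and 801 CPM with metatherian CRX. All metatherian CRX libraries were below all control libraries, at a log2 fold change of -2.84 (SE 1.00) with an adjusted p of 0.197 (edgeR), and without the libraries numbered 3 the value was -4.19 (SE 0.17, adjusted p 0.000213 from edgeR) and was called. With eutherian CRX the values were -1.09 (SE 0.88) with all libraries and -0.82 (SE 0.15, adjusted p 0.0411 from edgeR), a call, without those. Without eutherian CRX replicate 3 alone the value was -0.43, not called (adjusted p 0.903 from edgeR). *Comp* (cartilage oligomeric matrix protein) had 54.1, 40.2 and 51.5 CPM in control, 45.5, 51.9 and 7.15 CPM with eutherian CRX and 143, 97.2 and 11.0 CPM with metatherian CRX. It was above control in metatherian CRX replicates 1 and 2 and far below it in replicate 3 of both CRX groups, and its log2 fold change with metatherian CRX was 0.030 (SE 0.79) with all libraries and 1.34 (SE 0.17, adjusted p 0.0028 from edgeR) without those numbered 3. The log2 fold changes with eutherian and metatherian CRX were -0.58 and -0.78 for *Sparc*, -0.10 and 1.12 for *Spon2*, and -0.79 and -0.33 for *Thbs3*, none called. With metatherian CRX and without the libraries numbered 3, *Sparc* was called lower at -0.74 (SE 0.14, adjusted p 0.0112 from edgeR), *Spon2* was called higher at 1.88 (SE 0.16, adjusted p 0.000543 from edgeR), and *Thbs3* had 0.23 (SE 0.10, adjusted p 0.163 from edgeR). The value of *Sparc* with eutherian CRX was -0.12 without eutherian CRX replicate 3 and -0.11 without all libraries numbered 3.

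Proteoglycans had the lowest medians of all role groups, at -0.85 with eutherian and -1.77 with metatherian CRX, and 0 of 8 were called by edgeR. Without eutherian CRX replicate 3 the eutherian median of the group was -0.34, above the -0.45 of the matricellular genes, so the order with eutherian CRX rests on that library, whereas the metatherian median was -2.12 without metatherian CRX replicate 3. In each comparison with control 3 of the 8 had an unadjusted p under 0.05 on the lower side. The median of the group in the 3 control libraries was 0.25, 0.11 and -0.32 relative to their mean, and in eutherian CRX replicate 3 it was -3.83. *Bgn* (biglycan), the most abundant of them per length, stood at 4442, 5151 and 6654 CPM in control, 3841, 4154 and 4274 CPM with eutherian CRX and 5606, 5764 and 5108 CPM with metatherian CRX. All eutherian CRX libraries were below control, metatherian CRX libraries lay within its range, and the direct difference was 0.43 (SE 0.16) with an adjusted p of 0.399 (edgeR), which became 0.51 (SE 0.11, adjusted p 0.0168 from edgeR), a call, without the libraries numbered 3.

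The small leucine-rich proteoglycans of collagen fibrils other than biglycan are named after their values were seen. *Dcn* (decorin) had 475, 423 and 211 CPM in control, 349, 432 and 158 CPM with eutherian CRX and 63.0, 43.6 and 166 CPM with metatherian CRX. All metatherian CRX libraries were below all control libraries, whereas eutherian CRX replicates 1 and 2 lay within the range of control replicates 1 to 3. The log2 fold change of *Dcn* was -0.24 (SE 0.62) with eutherian and -1.99 (SE 0.68) with metatherian CRX, and the direct difference was -1.75 (SE 0.69), with an unadjusted p of 0.0393 and an adjusted p of 0.409 (edgeR). *Lum* (lumican) had 495, 376 and 107 CPM in control, 383, 495 and 45.7 CPM with eutherian CRX and 68.4, 38.2 and 57.3 CPM with metatherian CRX. It followed decorin in that eutherian CRX replicates 1 and 2 were level with control and the metatherian CRX libraries were not, at log2 fold changes of -0.21 (SE 0.66) and -2.12 (SE 0.70) and a direct difference of -1.92 (SE 0.73). When the libraries numbered 3 were left out, the direct differences were -2.89 (SE 0.19, adjusted p 0.000485 from edgeR) for *Dcn* and -3.10 (SE 0.27, adjusted p 0.000917 from edgeR) for *Lum*, both called. With metatherian CRX against control the values without metatherian CRX replicate 3 alone were -3.12 for *Dcn* (adjusted p 0.0111, edgeR) and -3.27 for *Lum* (0.0278), both called. With eutherian CRX and without its replicate 3 they were 0.17 and 0.35, above 0 and not called.

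*Prelp* and *Fmod* (fibromodulin) each had a pattern of its own. *Prelp* stood at 264, 337 and 226 CPM in control, 127, 154 and 7.97 CPM with eutherian CRX and 334, 251 and 46.4 CPM with metatherian CRX. Eutherian CRX libraries were all below control, and metatherian CRX replicates 1 and 2 were not. With all libraries its log2 fold change was -2.34 (SE 0.77) with eutherian and -1.01 (SE 0.73) with metatherian CRX and its direct difference 1.32 (SE 0.70), with adjusted p-values of 0.439, 0.482 and 0.521 (edgeR), none called. With the libraries numbered 3 left out, it was called lower with eutherian CRX at -1.10 (SE 0.18, adjusted p 0.0282 from edgeR), had -0.030 (SE 0.18, adjusted p 0.927 from edgeR) with metatherian CRX, and was called higher with metatherian than with eutherian CRX at 1.07 (SE 0.18, adjusted p 0.00791 from edgeR). *Fmod* had log2 fold changes of -2.05 with eutherian and -1.80 with metatherian CRX with all libraries, and both values were called lower without those numbered 3, at -0.99 (SE 0.20, adjusted p 0.049 from edgeR) and -1.23 (SE 0.20, adjusted p 0.0064 from edgeR). Without eutherian CRX replicate 3 alone, *Prelp* and *Fmod* had -1.49 and -1.20 with eutherian CRX. Neither was called (adjusted p 0.582 and 0.412 from edgeR). *Ogn* and *Aspn* had standard errors near or above 1 on the log2 scale. Their eutherian CRX replicate 3 values of 8.92 and 5.64 CPM compare with 623 and 837 CPM for *Ogn* and 151 and 223 CPM for *Aspn* in replicates 1 and 2 of the group, and both were called lower with metatherian CRX without the libraries numbered 3, at -1.57 and -1.67. With eutherian CRX their log2 fold changes of -1.21 and -1.58 were -0.20 and -0.53 without that library. For *Aspn*, 11% of the exon bases overlap *Cenpp*. *Vcan* (versican), a large proteoglycan that binds hyaluronan, had log2 fold changes of -0.49 with eutherian and -0.48 with metatherian CRX, with the eutherian CRX libraries all below control, and was called lower in both without the libraries numbered 3, at -0.47 and -0.80. Without eutherian CRX replicate 3 alone *Vcan* had -0.32 with eutherian CRX, not called.

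The 4 tested adhesive glycoproteins had medians of -0.37 with eutherian and -0.04 with metatherian CRX, 0 calls by edgeR, and 1 lower gene at an unadjusted p under 0.05 in each comparison with control. *Fn1* (fibronectin), which cells bind through integrins and on which other matrix assembles, stood at 15429.7, 17929 and 17412 CPM in control, 16705, 14128 and 10689.9 CPM with eutherian CRX and 25819, 28131 and 14262 CPM with metatherian CRX. Metatherian CRX replicates 1 and 2 were above all other libraries, and replicate 3 was below control. The direct difference of 0.69 (SE 0.23) had an unadjusted p of 0.0215 and an adjusted p of 0.352 (edgeR), metatherian CRX was above eutherian CRX within each number, and the log2 fold changes against control were -0.33 (SE 0.23) with eutherian and 0.36 (SE 0.23) with metatherian CRX. In the 6 libraries numbered 1 and 2, *Fn1* was called higher with metatherian CRX, at 0.69 (SE 0.15, adjusted p 0.0189 from edgeR) against control and 0.81 (SE 0.15, adjusted p 0.0115 from edgeR) against eutherian CRX, while with eutherian CRX against control it had -0.11. The values against control turned on control replicate 3 as well, without which *Fn1* had -0.044 with eutherian and 0.63 with metatherian CRX. With 1 library left out they ranged from -0.52 to -0.044 with eutherian and from 0.17 to 0.63 with metatherian CRX. *Tgfbi*, a TGF-beta-induced protein that binds collagen and integrins, had 109.8, 99.7 and 131 CPM in control, 69.1, 86.3 and 70.5 CPM with eutherian CRX and 87.2, 76.5 and 81.5 CPM with metatherian CRX. Every CRX library was below every control library, with log2 fold changes of -0.59 (SE 0.15) and -0.47 (SE 0.15) and adjusted p-values of 0.233 and 0.161 (edgeR). *Ecm1* had log2 fold changes of -0.41 with eutherian and -0.11 with metatherian CRX. *Matn2* (matrilin 2) had -0.046 with eutherian and 0.039 with metatherian CRX on that scale with SEs of 0.11 and 0.11, the smallest among all members in both comparisons.

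The replicate number was itself tested in the same fit, with condition as the other factor. Of all genes, 2.8% were called for the number, and of the members 0. An unadjusted p under 0.05 was reached by 13 members and by 18.9% of all genes. The lowest adjusted p-values from edgeR were 0.0576 for *Sparcl1* and 0.0768 for *Lamb1*, both of which were highest in the libraries numbered 3 of each group, and 0.0955 for *Thbs1* and *Mfap5*, which were lowest there. DESeq2 called 11 members for the number (13.7% of all genes), and edgeR called 1 with filterByExpr alone and 3 with no filter (3.76% and 3.41% of all genes).

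Genes that share the pathway were read from the same fit. For each list that follows, medians and gene values are log2 fold changes. The matrix receptors (27 of 29 tested) had 0 calls in either comparison with control, medians of -0.10 with eutherian and 0.14 with metatherian CRX, and an unadjusted p under 0.05 in 6 genes above and 4 below control with metatherian CRX (9.04% and 10.5% of all genes). The 2 with the lowest p there were *Ddr1*, a collagen receptor kinase, at -1.10 (SE 0.20, adjusted p 0.0822 from edgeR) and *Itgav*, a chain of receptors for vitronectin and fibronectin, at 0.72 (SE 0.14, adjusted p 0.0843 from edgeR). With eutherian CRX the lowest p-values of the list were those of the integrin chains *Itga8*, at -1.40 (SE 0.30, adjusted p 0.16 from edgeR), and *Itga1*, at -1.20 (SE 0.31, adjusted p 0.269 from edgeR). The 24 tested genes of the TGF-beta pathway had medians of -0.26 and -0.23 with 0 calls. *Ctgf*, a target of TGF-beta signalling, had -1.10 (SE 0.24, adjusted p 0.159 from edgeR) with eutherian CRX, *Smad6*, an inhibitory SMAD, had -1.10 (SE 0.24, adjusted p 0.0981 from edgeR) with metatherian CRX, and *Cyr61*, a matricellular relative of *Ctgf*, had -0.52 (SE 0.15, adjusted p 0.35 from edgeR) and -0.64 (SE 0.15, adjusted p 0.108 from edgeR). Collagen processing genes (24 tested) had medians of -0.31 and -0.25, again with 0 calls. Among them *P4ha3*, a subunit of prolyl 4-hydroxylase, had -1.25 (SE 0.29, adjusted p 0.2 from edgeR) with eutherian CRX, and *Serpinh1*, the collagen chaperone HSP47, had -1.07 (SE 0.19, adjusted p 0.0822 from edgeR) and *Adamts2*, which removes the N-propeptide of procollagen, -1.44 (SE 0.30, adjusted p 0.0974 from edgeR) with metatherian CRX. Of 32 genes of the same families outside the members 12 were tested, with medians of -0.33 and -0.04 and 0 calls. *Podn* (podocan, a leucine-rich proteoglycan) had -1.33 (SE 0.41, adjusted p 0.401 from edgeR) and -1.79 (SE 0.41, adjusted p 0.107 from edgeR), and *Fbln7* -0.75 (SE 0.23, adjusted p 0.401 from edgeR) and -1.01 (SE 0.23, adjusted p 0.108 from edgeR). At an unadjusted p under 0.05 with eutherian CRX, these 4 lists had 6, 5, 6 and 2 lower genes in the order given here and 0 higher genes, against 6.34% and 2.23% of all genes. With metatherian CRX the last 3 lists had 9, 4 and 3 lower and 1, 3 and 2 higher genes at that threshold, against 10.5% and 9.04% of all genes. In 2 of the lists the libraries numbered 3 of both CRX groups lay furthest below the control mean. The median of the TGF-beta pathway relative to that mean was -0.13, -0.25 and -0.57 with eutherian CRX and -0.13, -0.012 and -0.65 with metatherian CRX, and that of collagen processing was -0.15, -0.13 and -0.77 with eutherian CRX and -0.040, -0.19 and -0.59 with metatherian CRX.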

How the data were processed

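Counts of 9 libraries were analysed, 3 per condition, with groups taken from the sample labels. The authors aligned paired-end reads with STAR to mm10 and deposited raw counts per gene made with featureCounts, with no normalization and no pooling. The strand setting and the annotation release are not given in the sources used here. All sample columns of the table were used.

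Of 22068 genes, 3756 had no count. edgeR 4.0.16 (R 4.3.3) filterByExpr kept 14599, of which 10100 exceeded a mean FPKM of 2 in any condition. FPKM was computed from the counts, the merged exon length and the full library total. TMM factors and the quasi-likelihood test were used, with the replicate number as a block because the study says in its results that samples were paired in preparation and in the analysis, although it does not tie the pairs to these numbers, and with Benjamini-Hochberg adjustment over all 10100 genes. Genes at an adjusted p under 0.05 were called. Each standard error was obtained by dividing the absolute log2 fold change by the root of its F statistic. A prior count of 2 entered log2 CPM values. Alternatives included no block, other size factors, DESeq2 1.42.0, limma 3.58.1 (voom with library quality weights), other filters and libraries left out. On simulated counts of 10100 genes, with 200 changed by a log2 fold change of 2 between eutherian CRX and control, edgeR recovered 196 with 7 false calls, DESeq2 196 with 35, limma voom 196 with 7, and edgeR without the libraries numbered 3 190 with 12. Unlike the data, the simulated counts held no effect of the replicate number and no library that stood apart from its group. These results therefore check the fits and do not give the recovery or the false calls of the tests reported here.

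The members, gene lists and tests were chosen with earlier results of these data known. Values in every library are given for members called in any comparison, for the 6 with the lowest p in each comparison and for the member of each role with the highest mean FPKM. Of the pathway lists, the 2 genes with the lowest p in each comparison with control could be named, and members that failed the filter are named with their range. Other members given with their values in each library were chosen after those values were seen. Where 0 counts were seen, up to 3 were taken as possible, a limit for counting error only.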

Additional observations from a re-analysis of the deposited data

How the results depend on the processing

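The number of members called depended on the libraries and the test, and the cause was not tested. With libraries left out, 1 at a time or all of 1 replicate number, the count of members called lower ranged from 0 to 9 with eutherian CRX, from 0 to 27 with metatherian CRX and from 0 to 20 in the direct comparison, the counts called higher ranged from 0 to 10 with metatherian CRX and from 0 to 14 in the direct comparison, and the count for the replicate number ranged from 0 to 6. In the same order the shares of all genes called ranged from 0% to 2.91%, 11.2%, 9.78%, 11.1%, 12.8% and 8.24%. The highest counts of the 3 comparisons came without all libraries numbered 3. With eutherian CRX the 1 lower member became 0 with no replicate block, with upper-quartile factors and with only the 6 libraries compared, 9 with DESeq2, 20 with limma voom (which also called 1 higher) and 15 at an unadjusted p. With metatherian CRX the counts of 0 became 2 higher and 13 lower with DESeq2, 13 and 29 with limma voom, 1 and 15 with the 6 libraries compared (1.75% and 2.19% of all genes), and 4 and 22 at an unadjusted p. In the direct comparison they became 2 higher with DESeq2, 17 higher and 19 lower with limma voom, and 6 and 3 at an unadjusted p. The replicate number had 11 members called with DESeq2, 1 with filterByExpr alone, 3 with no filter (13.7%, 3.76% and 3.41% of all genes) and 13 at an unadjusted p. The ATTA core was found in 23 members (60.5% of their promoter entries and 58% of all entries). The median log2 fold change of the members against control kept its sign in every alternative run, between -0.70 and -0.23 with eutherian and between -0.77 and -0.36 with metatherian CRX.

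Libraries of the same number deviated together, with r above 0.1, in 8 of 9 pairs, the lowest being 0.0034, while libraries of different numbers reached 0.72, so the numbers are not shown to mark pairs. Without the block the log2 fold change of *Smoc1* with eutherian CRX was -0.96 at an adjusted p of 0.303 (edgeR), a lost call.

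Of 1140 alternative values of 57 log2 fold changes of named members, 36 reversed, in 15 of them, and 13 lost and 110 gained a call. By limma voom *Ltbp2* became 0.12 with eutherian and 0.015 with metatherian CRX, *Lamb1* became -0.068 with eutherian CRX, and *Tnc* and *Mfap2* became -0.00049 and 0.018 in the direct comparison. With libraries left out, the values that changed sign with eutherian CRX ranged from -0.60 to 0.045 for *Efemp1*, -0.34 to 0.052 for *Loxl4*, -0.41 to 0.10 for *Fbln2*, -0.20 to 0.15 for *Ltbp2* and -0.23 to 0.27 for *Lamb1*. Those with metatherian CRX ranged from -0.11 to 0.25 for *Bgn*, -0.15 to 0.0090 for *Nid1* and -0.41 to 0.050 for *Ltbp2*. In the direct comparison the ranges were -1.32 to 0.028 for *Eln*, -0.78 to 0.12 for *Thbs2*, -1.24 to 0.27 for *Lox*, -0.11 to 0.20 for *Smoc1*, -0.033 to 0.25 for *Tnc*, -0.45 to 0.079 for *Mfap2* and -0.34 to 0.059 for *Ltbp2*. edgeR called none of the 15 with all 9 libraries, and limma voom called *Bgn* with metatherian CRX and *Eln*, *Thbs2* and *Lox* in the direct comparison. Depth was at least 54145701 counts per library.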
